A study of Mus musculus with 4 samples.

Results

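The nuclear-encoded respiratory chain genes were taken from the gene list of 4 single-cell RNA-sequencing libraries of mouse brain, 3 days after a temporary occlusion of the middle cerebral artery (tMCAO, an experimental stroke). A gene was a member if its symbol began with Nduf, Uqcr or Atp5, or with Cox followed by a digit of 4 to 8, or was Sdha, Sdhb, Sdhc, Sdhd or Cycs. Entries with -ps in the symbol, which marks pseudogenes, were left out, and there were 2 of these. The rule gave 95 entries of 31253 genes, under 94 symbols because Atp5o is listed under 2 identifiers. They comprised 36 subunits of complex I, 8 assembly factors of complex I, 4 subunits of complex II, 8 of complex III, cytochrome c (Cycs), 20 of complex IV and 18 of complex V. Ndufa4 and Ndufa4l2 carry complex I names but were counted with complex IV, to which they belong. The rule used symbols alone and no measured value.

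Of the 4 libraries, 2 came from the Ms4a3 cKO group and 2 from the Flox control group. In the cKO group a floxed Htr2b gene, which encodes a serotonin receptor, was combined with Cre driven from Ms4a3, a gene of granulocyte and monocyte progenitors; the design text calls this arm Htr2b ERCre; Ms4a3-Cre. The Flox controls were littermates with Htr2b flox/flox and no stated Cre. The labels say that tamoxifen was given before surgery with a washout of 3 days, that the animals were adult and of either sex, and that the background was C57B6; exact ages are not given in them. Cells came from the hemisphere on the side of the occlusion, with no enrichment of a cell type. The stated purpose was to tell microglia from macrophages that enter from blood and to describe what loss of Htr2b does to them. Nothing in the labels says whether the libraries of a group came from separate animals, so the p-values measure the spread between these libraries, which may be technical.

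As background, the respiratory chain sits in the inner mitochondrial membrane. Complex I takes electrons from NADH and complex II from succinate; complex III passes them to cytochrome c and complex IV to oxygen, while complexes I, III and IV pump protons. Complex V, the ATP synthase, lets the protons flow back and makes ATP. Most subunits are encoded in the nucleus and imported, and a small core is encoded by mitochondrial DNA, so the complexes need both genomes. Complex II is built from nuclear genes alone. In the brain, oxidative phosphorylation supplies most ATP of neurons and of the ion-pumping choroid plexus epithelium, whereas neutrophils rely largely on glycolysis.

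Promoters of these genes are known for binding sites of NRF1 and of GABP, an ETS-family factor, and for frequently lacking a TATA box. RefSeq promoters of 300 bases (250 before to 50 after the start, GRCm38.p6) were found for 77 of the 94 symbols and were searched on both strands. The NRF1 core GCATGCGC was present in 13 of the 77, or 16.9%, against 3.05% of all 27025 symbols with a promoter. The ETS core CCGGAAG was present in 19 of the 77, or 24.7%, against 9.93% of all symbols. The SP1 core GGGCGG was present in 36 of the 77 (46.8%, against 38.2%), and the TATA letters TATAAA in 8 of the 77 (10.4%, against 15.7%). The NRF1 or the ETS core was present in 27 of the 77, both in 5, and none of the 4 motifs in 26. These are matches of letters, not bound sites. The promoters of Cycs and of the 3 genes of the ATP synthase c-subunit, Atp5g1, Atp5g2 and Atp5g3, are shown because the c-subunit genes differ in level between cell classes below although their mature protein is the same.

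The 4 promoters are on the minus strand and are given 5′ to 3′, with capitals on NRF1 and SP1 cores in either orientation. They lie at chr6:50566520-50566819 (Cycs), chr11:96075582-96075881 (Atp5g1), chr15:102670998-102671297 (Atp5g2) and chr2:73911277-73911576 (Atp5g3). Cycs held 1 NRF1 core and 1 SP1 core. Atp5g2 held 2 overlapping NRF1 matches, one on each strand, and 1 SP1 core. Atp5g1 and Atp5g3 held none of these letters in this window.
Cycs: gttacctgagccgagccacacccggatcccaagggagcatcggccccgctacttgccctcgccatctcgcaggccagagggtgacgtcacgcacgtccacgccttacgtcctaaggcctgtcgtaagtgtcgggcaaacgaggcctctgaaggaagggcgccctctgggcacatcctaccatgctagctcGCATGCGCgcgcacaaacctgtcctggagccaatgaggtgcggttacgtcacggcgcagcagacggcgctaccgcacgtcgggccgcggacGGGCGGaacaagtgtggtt
Atp5g1: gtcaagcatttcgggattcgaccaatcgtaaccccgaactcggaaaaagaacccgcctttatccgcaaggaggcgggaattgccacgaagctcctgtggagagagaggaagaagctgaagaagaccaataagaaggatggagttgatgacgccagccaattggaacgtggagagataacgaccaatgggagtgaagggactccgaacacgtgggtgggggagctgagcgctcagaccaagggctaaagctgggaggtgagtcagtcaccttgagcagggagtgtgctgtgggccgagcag
Atp5g2: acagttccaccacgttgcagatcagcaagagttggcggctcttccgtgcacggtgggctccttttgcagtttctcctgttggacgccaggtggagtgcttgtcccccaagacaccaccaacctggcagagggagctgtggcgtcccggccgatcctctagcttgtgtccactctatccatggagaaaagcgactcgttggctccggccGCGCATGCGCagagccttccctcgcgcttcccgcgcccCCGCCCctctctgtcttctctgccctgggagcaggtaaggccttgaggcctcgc
Atp5g3: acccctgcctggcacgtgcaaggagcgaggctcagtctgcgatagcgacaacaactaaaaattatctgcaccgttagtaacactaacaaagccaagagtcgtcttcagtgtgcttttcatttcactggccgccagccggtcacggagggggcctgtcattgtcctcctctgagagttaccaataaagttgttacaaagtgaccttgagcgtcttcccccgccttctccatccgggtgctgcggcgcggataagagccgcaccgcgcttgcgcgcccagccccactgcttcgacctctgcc

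The values are unique molecular identifiers (UMIs), each counting one captured mRNA, and are not divided by transcript length. After filtering and removal of predicted doublets, 59685 of 63181 barcodes were kept, 13215 to 16267 per library. Library totals were 77580518 and 84397197 UMIs in cKO and 105566650 and 105545311 UMIs in Flox, and the median UMIs per cell were 3764 and 4004 in cKO, against 6599 and 5523 in Flox. A total of 13 barcode sequences occurred in more than 1 library. Cells were clustered without the members or the mitochondrially encoded genes and were named from markers. There were 11 classes with at least 50 cells in every library. One of them, with markers of dendritic cells beside Ccr2 and Plac8, is called cluster 9. Levels are given as CPM, the UMIs of a gene over all UMIs of a class in a library, times 1000000, always with both cKO libraries before both Flox libraries.

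The libraries filled the clusters unequally, and in its microglia the Flox replicate 1 library stood apart from the other 3. Cluster 5 held 48.8% of its microglia, against 1.55 and 4.24% in cKO libraries and 7.68% in Flox replicate 2. Of its monocyte-derived macrophages, 80.5% lay in cluster 4, against 0.308 and 1.29% in cKO and 8.99% in Flox replicate 2. The other libraries had other main macrophage clusters. Cluster 3 held 79.5% of these cells in Flox replicate 2, and cluster 6 held 61.7 and 62.5% in cKO. The class markers of the macrophages differed too, between both cKO and both Flox libraries. The 15 monocyte-macrophage markers summed in that class to 24399 and 16978 CPM in cKO, against 4828 and 8542 CPM in Flox, while the 12 microglial markers summed there to 2845 and 3659 CPM in cKO, against 8783 and 4593 CPM in Flox. In Flox replicate 1 the sum of the microglial markers in that class thus exceeded the sum of its own markers. The name monocyte-derived macrophages is therefore a label given from markers, and the origin of the cells was not measured. All 12 microglial markers and all 15 monocyte-macrophage markers had a UMI in every library of their own class. What part these differences have in the genotype results was not tested; the results are given with and without single libraries.

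Summed over all members, the choroid plexus epithelium had the highest level of the 11 classes and neutrophils the lowest. The sum in choroid plexus was 18998 and 19938 CPM in cKO and 30522 and 23331 CPM in Flox, with a median of 21634 CPM. In monocyte-derived macrophages it was 10035 and 10462 CPM in cKO and 11166 and 10984 CPM in Flox, with a median of 10723 CPM. Microglia had 7695 and 7808 CPM in cKO and 7644 and 8010 CPM in Flox, with a median of 7752 CPM. The microglial values lay close together and below every value of the macrophages. Neutrophils had 4910 and 6454 CPM in cKO and 4903 and 6466 CPM in Flox, with a median of 5682 CPM. Between these classes, the medians were 10524 CPM in fibroblasts, 8834 in border macrophages, 8807 in endothelial cells, 8679 in cluster 9, 8352 in astrocytes, 8154 in oligodendrocytes and 7804 in neuroblasts. Going down this order, the ranges of neighbours were separate between choroid plexus and monocyte-derived macrophages, between fibroblasts and border macrophages, and between microglia and neutrophils; the other neighbours overlapped. Classes are clusters of the same cells, so these differences are descriptions without a test.

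**Figure D1:**
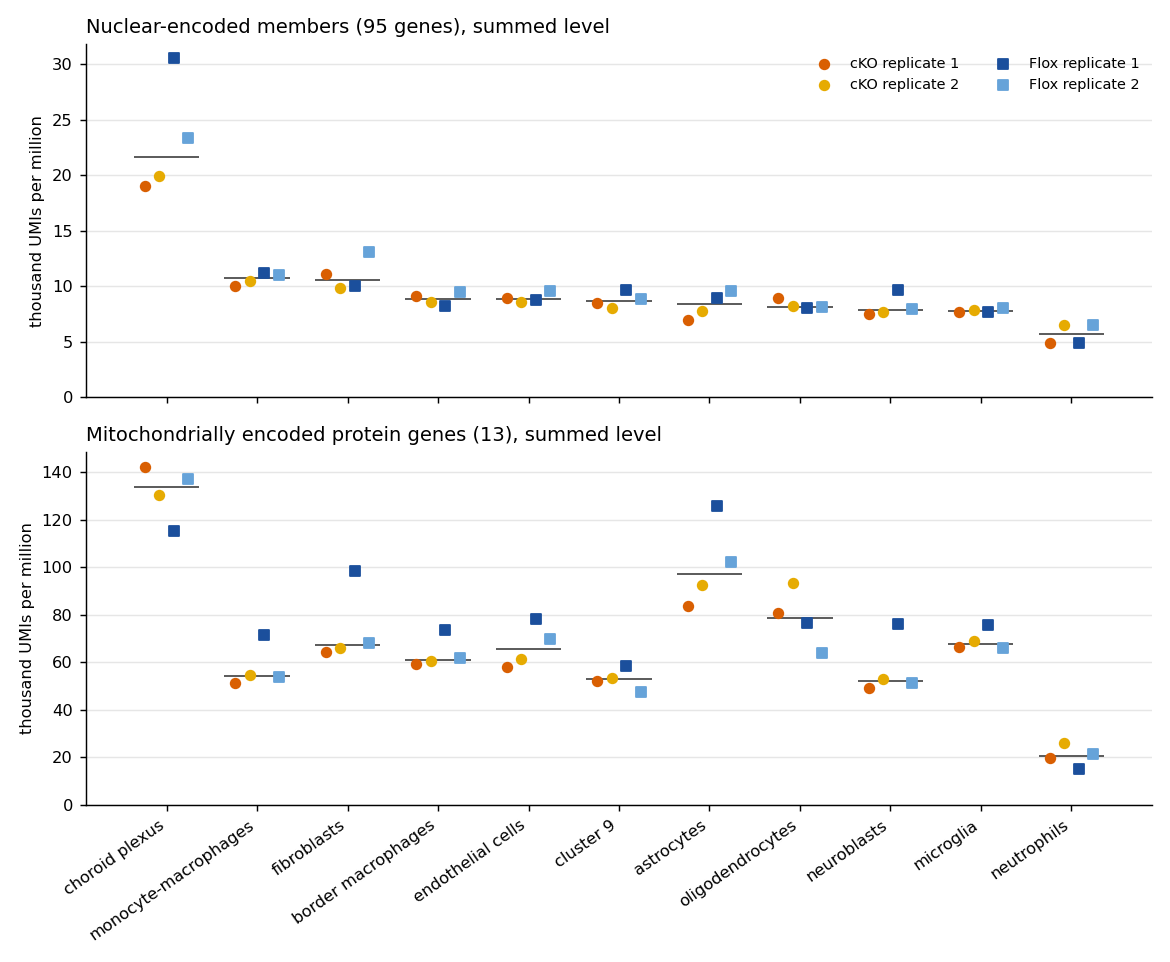
Summed CPM of the 95 nuclear members (top) and of the 13 mitochondrially encoded protein genes (bottom) in 11 cell classes. Each point is 1 library and the line is the median of the 4. Choroid plexus is highest in both panels and neutrophils lowest. Monocyte-derived macrophages rank second in the top panel and in the lower part of the order in the bottom panel.

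The 13 protein genes of mitochondrial DNA gave another order. Their sum in choroid plexus was 142433 and 130474 CPM in cKO, against 115437 and 137312 CPM in Flox. Astrocytes were next, with 83876 and 92391 CPM in cKO and 125652 and 102199 CPM in Flox. Microglia had 66566 and 69003 CPM in cKO, against 75604 and 65986 CPM in Flox. In monocyte-derived macrophages the values were 51234 and 54727 CPM in cKO and 71493 and 53838 CPM in Flox, so the library Flox replicate 1 overlapped the microglial range and the other 3 did not. Neutrophils had 19836 and 26136 CPM in cKO and 15108 and 21182 CPM in Flox, below all values of the other classes. Among neighbours in this order, the ranges were separate between neuroblasts and neutrophils and overlapped elsewhere.

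The ratio of nuclear to mitochondrially encoded UMIs therefore differed by class. Its median was 0.276 in neutrophils (0.247 to 0.325 over libraries), 0.194 in monocyte-derived macrophages (0.156 to 0.204), 0.114 in microglia (0.101 to 0.121) and 0.083 in astrocytes (0.071 to 0.094). The macrophage range lay above the microglial range. Relative to microglia, the median nuclear sum was 1.38-fold in monocyte-derived macrophages and the median mitochondrial sum 0.801-fold. In neutrophils the corresponding ratios were 0.733 and 0.303. Barcodes with 20% or more mitochondrially encoded UMIs had been removed, which bounds the second quantity in every class.

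The complexes kept similar proportions. Across the 11 class medians, complex V made up 33.8 to 40.0% of the members' UMIs, complex I 20.5 to 26.3%, complex IV 19.2 to 24.1% and complex III 11 to 14.4%. Complex II made up 2.88 to 5.17%, the complex I assembly factors 1.27 to 2.58% and cytochrome c 0.875 to 1.42%. The excess of monocyte-derived macrophages over microglia was seen in each complex, with ratios of the median sums of 1.38 for complex I, 1.24 for complex II, 1.34 for complex III, 1.43 for complex IV and 1.39 for complex V. The excess of choroid plexus over microglia was 1.98-fold for complex II and between 2.69-fold and 2.92-fold for the others.

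In complex I, the NADH dehydrogenase, the 3 most abundant members over the 4 main classes (microglia, monocyte-derived macrophages, neutrophils and endothelial cells) were Ndufc2, Ndufab1 and Ndufb6. Ndufc2, an accessory subunit of the membrane arm, had 215 and 242 CPM in cKO and 219 and 243 CPM in Flox microglia. Its class medians ran from 587 CPM in choroid plexus, 427 in astrocytes and 326 in neuroblasts down to 79.1 in neutrophils. Relative to its level elsewhere it was thus high in astrocytes and low in neutrophils. Ndufab1, the mitochondrial acyl carrier protein, had 113 and 111 CPM in cKO and 153 and 124 CPM in Flox microglia. Ndufb6, an accessory subunit, had class medians from 321 CPM in choroid plexus to 73.9 in neutrophils, with 98.0 in microglia and 148 in monocyte-derived macrophages. Some core subunits had very few UMIs: over all kept cells Ndufv1, which binds the flavin where NADH is oxidised, had 1070 UMIs and Ndufs8, an iron-sulphur subunit, had 1343, while Ndufc2 had 92152. The number of UMIs captured per gene therefore does not follow the equal stoichiometry of subunits in the complex.

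Among the assembly factors of complex I, Ndufaf4 was the most abundant. Its medians were 101 CPM in choroid plexus, 94.3 in astrocytes and 46.2 in microglia. In neutrophils it had 5.26 and 10.5 CPM in cKO and 18.9 and 8.85 CPM in Flox. Ndufaf7, an arginine methyltransferase of complex I assembly, and Ndufaf2 followed, with medians of 28.5 and 14.1 CPM in microglia. For Ndufaf7, monocyte-derived macrophages had the lowest median of the 11 classes, at 21 CPM.

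Complex II oxidises succinate and links the citric acid cycle to the chain. Sdha, its flavoprotein, had 132 and 134 CPM in cKO and 140 and 124 CPM in Flox microglia, and medians of 281 CPM in choroid plexus, 221 in astrocytes and 111 in neutrophils. Sdhc and Sdhd are the membrane anchors. Sdhd had a median of 113 CPM in monocyte-derived macrophages and 76.8 in microglia, but Sdhc had nearly the same median in both, 59.2 and 58.5 CPM.

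In complex III, the cytochrome bc1 complex, Uqcrh, the hinge protein, had a median of 892 CPM in choroid plexus, 411 in endothelial cells, 345 in monocyte-derived macrophages, 275 in neutrophils and 267 in microglia. Neutrophils were therefore not the lowest class for this gene. Uqcrb, another subunit, had 388 and 411 CPM in cKO and 464 and 432 CPM in Flox macrophages, against medians of 258 CPM in microglia and 154 in neutrophils. Uqcrc2, a core protein, had 371 CPM in choroid plexus, 269 in astrocytes and 250 in oligodendrocytes. Cycs, the mobile electron carrier that also triggers apoptosome assembly in the cytosol, had 165 and 155 CPM in cKO and 340 and 325 CPM in Flox choroid plexus. Those groups did not overlap. In microglia Cycs had 91.6 and 87.9 CPM in cKO and 78.3 and 90 CPM in Flox, which overlapped.

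Complex IV, cytochrome c oxidase, was led by Cox7c, Cox5a and Cox6c. Cox7c had 481 and 488 CPM in cKO and 338 and 514 CPM in Flox macrophages, and a median of 373 CPM in microglia. Cox5a had 359 and 396 CPM in cKO and 543 and 397 CPM in Flox macrophages, against a median of 239 CPM in microglia. Flox replicate 1 was the lowest library for Cox7c and the highest for Cox5a. Cox6c was the gene in which choroid plexus stood furthest above the next class among these 3, with 1024 CPM against 357 in monocyte-derived macrophages.

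Complex V held the most abundant members. Atp5g3 encodes the c-subunit of the proton-conducting ring and had 241673 UMIs over all kept cells, the most of any member. It had 1641 and 1905 CPM in cKO and 2831 and 2298 CPM in Flox choroid plexus. Its medians were 1133 CPM in fibroblasts, 828 in monocyte-derived macrophages, 574 in microglia and 282 in neutrophils. Atp5l, a subunit of the membrane part, reached a median of 450 CPM in neutrophils, above its 355 CPM in microglia. Atp5a1, the catalytic-head alpha subunit, had 232 CPM in neutrophils and 469 in microglia. The neutrophil level relative to microglia was thus not the same for all subunits of the complex.

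The 3 c-subunit genes differed in where they were high. In microglia Atp5g1 had 30.1 and 29.2 CPM in cKO and 25.8 and 34.7 CPM in Flox. Atp5g2 there had 267 and 311 CPM in cKO and 361 and 298 CPM in Flox, and Atp5g3 had 584 and 573 CPM in cKO and 464 and 575 CPM in Flox. To set classes side by side, log2(median CPM + 1) of each member was reduced by its mean over the 11 classes and then by the median of the members in that class. On this centred scale Atp5g1 stood at 1.47 in choroid plexus, and Atp5g2 at -0.83. Choroid plexus Atp5g1 had 125 and 170 CPM in cKO and 354 and 280 CPM in Flox.

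On the same centred scale, 63 members with a mean of at least 20 CPM could be compared, and those named here were picked after their values were seen. Atp5k varied least between classes, with an SD of 0.10 on the log2 scale, and Ndufa1, Ndufaf4, Cox7a2l and Ndufa5 were among the most variable. Astrocytes were low in Cox7a2l, which takes part in joining complexes III and IV into supercomplexes, by -1.28 (44.2 CPM), and in Ndufa1 by -1.14. Cluster 9 was high in Cox7a2l by 0.99 (234 CPM). Neutrophils were low in Ndufaf4 by -1.69 and in Ndufa5 by -1.58, where 8.6 CPM remained. Endothelial cells were high in Ndufa8 by 1.02 (113 CPM), neuroblasts in Ndufs4 by 0.99 (165 CPM), and oligodendrocytes in Cox6a1 by 0.68 (128 CPM). These deviations are descriptions across classes of the same libraries.

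Several complex IV subunits have a second form that is restricted to some tissues, and most of these were at or near 0 outside 1 or 2 classes. Cox4i2, a form of subunit 4 known from lung and from oxygen-sensing cells, had 38.2 and 40.6 CPM in cKO and 24.7 and 47.7 CPM in Flox mural cells, the pericytes and smooth muscle cells. These rest on 32 and 40 UMIs in cKO and 1 and 24 UMIs in Flox, with 18 mural cells in Flox replicate 1, for which reason mural cells were not tested. In the 11 tested classes Cox4i2 did not exceed 4.67 CPM in any library. The common form Cox4i1 had 47.7 and 44.7 CPM in cKO and 24.7 and 93.5 CPM in Flox mural cells. Ndufa4l2, a hypoxia-inducible paralogue of Ndufa4, had 69.2 and 69.1 CPM in cKO and 198 and 83.5 CPM in Flox mural cells, the 198 resting on 8 UMIs. Ndufa4 itself had 71.6 and 85.3 CPM in cKO and 49.4 and 95.5 CPM in Flox mural cells and was low there relative to its other classes, by -1.25 on the centred log2 scale. In the cKO mural cells Cox4i2 and Ndufa4l2 were thus of similar level to their common forms, while in Flox replicate 2 Cox4i2 was below Cox4i1. Other restricted forms stayed far below theirs in mural cells. Cox6b2 had a median of 2.01 CPM, against 103 CPM for Cox6b1, and Cox6a2 a median of 0 CPM, against 103 CPM for Cox6a1.

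The genes most like Cox4i2 over the 60 sums of class and library were Gm42397 (Spearman's rho 0.66), Ppard (0.65), Caln1 (0.65), Nts (0.65) and Mannr (0.63), among 15682 genes with at least 100 UMIs; Ndufa4l2 had a rho of 0.62. Those sums share libraries and differ in depth, and Cox4i2 is sparse, so the values are descriptions.

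**Figure D2:**
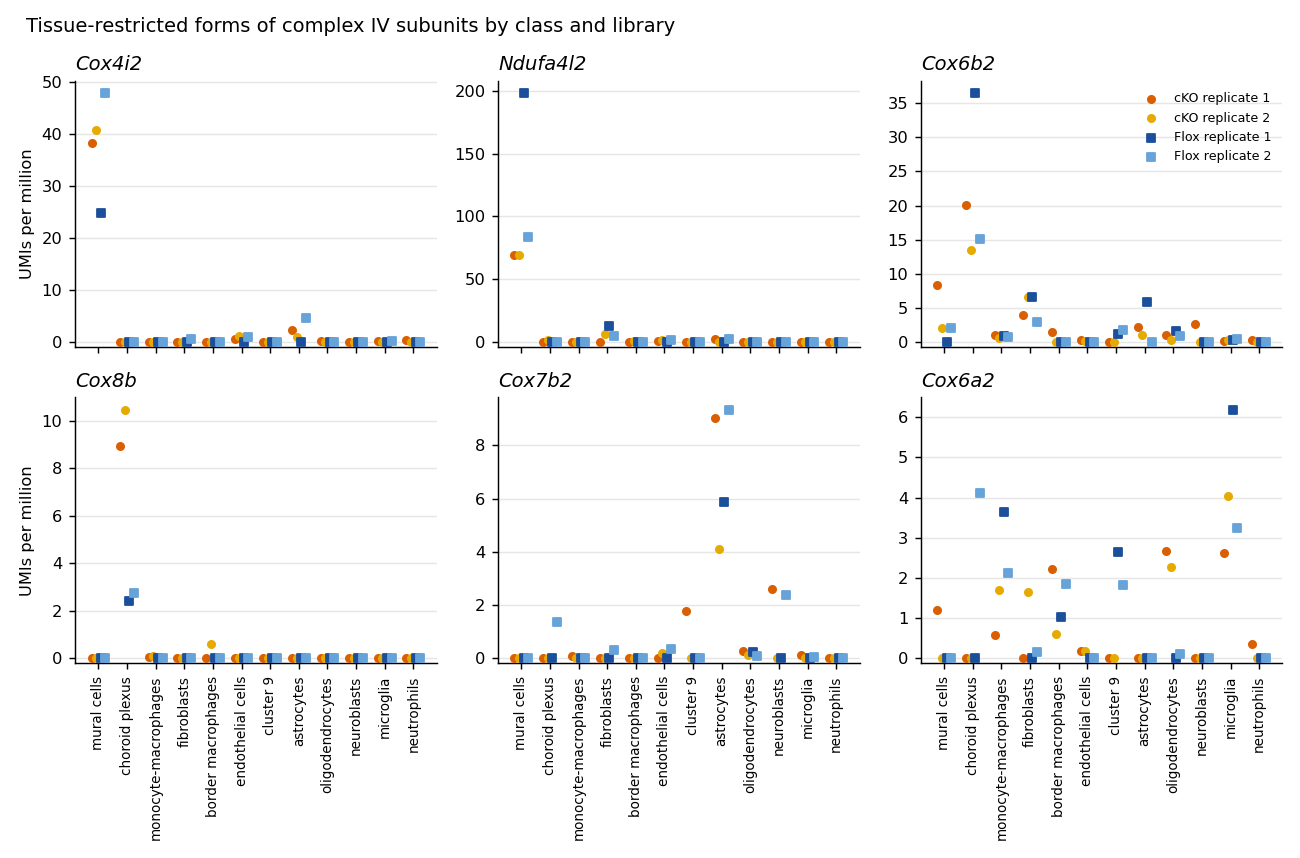
CPM of 6 restricted forms in mural cells and the 11 tested classes; each point is 1 library. Cox4i2 and Ndufa4l2 stand out in mural cells, Cox6b2 and Cox8b in choroid plexus, Cox7b2 in astrocytes at single-digit CPM, while Cox6a2 is spread over several classes, with 2.62 to 6.18 CPM in microglia.

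Choroid plexus held further restricted forms. Cox6b2, known from testis, had 20.1 and 13.4 CPM in cKO and 36.4 and 15 CPM in Flox choroid plexus, where the common Cox6b1 had 176 and 190 CPM in cKO and 194 and 213 CPM in Flox. Cox8b, a heart and muscle form, had 8.93 and 10.5 CPM in cKO and 2.43 and 2.73 CPM in Flox choroid plexus, from 8 and 14 UMIs in cKO and 1 and 2 UMIs in Flox. Cox7a1, a heart and muscle form as well, had 5.58 and 2.99 CPM in cKO and 12.1 and 5.47 CPM in Flox there. The restricted forms were therefore minor beside their common forms in this epithelium; Cox8a had 469 and 427 CPM in cKO and 784 and 519 CPM in Flox. Cox7b2 had 2 to 4 UMIs per library in astrocytes. Cox8c had no UMI in any kept cell.

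Cox6a2, the heart and muscle form of subunit 6a, had 67 and 152 UMIs in cKO and 241 and 97 UMIs in Flox microglia, or 2.62 and 4.03 CPM in cKO and 6.18 and 3.25 CPM in Flox. Its common form Cox6a1 had 74.8 and 73.2 CPM in cKO and 78.4 and 82.1 CPM in Flox there. In oligodendrocytes Cox6a2 had 2.68 and 2.27 CPM in cKO and 0 and 0.105 CPM in Flox, from 19 and 19 UMIs in cKO and 0 and 1 UMI in Flox. Cox6a2 (GRCm38 chromosome 7, 128205435 to 128206387, minus strand) lies within Itgad on the plus strand. Itgad, an integrin gene, had 294 and 383 CPM in cKO and 13.7 and 53.4 CPM in Flox oligodendrocytes, against 1.80 and 1.51 CPM in cKO and 1.18 and 1.04 CPM in Flox microglia. Since the strand setting of the counting is not given in the sources used here, reads of the pair cannot be told apart in oligodendrocytes. In all, 41 member symbols overlap another annotated gene, and for 26 of them it is a protein-coding gene on the other strand.

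Within microglia, the members differed strongly between clusters. In cluster 1, with 23.6 and 26.7% of the microglia in cKO and 30.0 and 29.5% in Flox, the sum was 9887 and 9416 CPM in cKO and 8694 and 9693 CPM in Flox. Cluster 0, with 60.8 and 53.0% of the microglia in cKO and 10.0 and 45.0% in Flox, had 4089 to 4737 CPM over the 4 libraries. The cycling cluster 8 had 9588 and 9335 CPM in cKO and 9888 and 9415 CPM in Flox, and cluster 5 had 7673 and 6132 CPM in cKO and 6087 and 5983 CPM in Flox. Clusters 1 and 8 were thus at about the same level, with cluster 5 between them and cluster 0. The mitochondrially encoded genes differed less, with medians of 56592, 72064, 72230 and 73317 CPM in clusters 0, 5, 1 and 8.

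**Figure D3:**
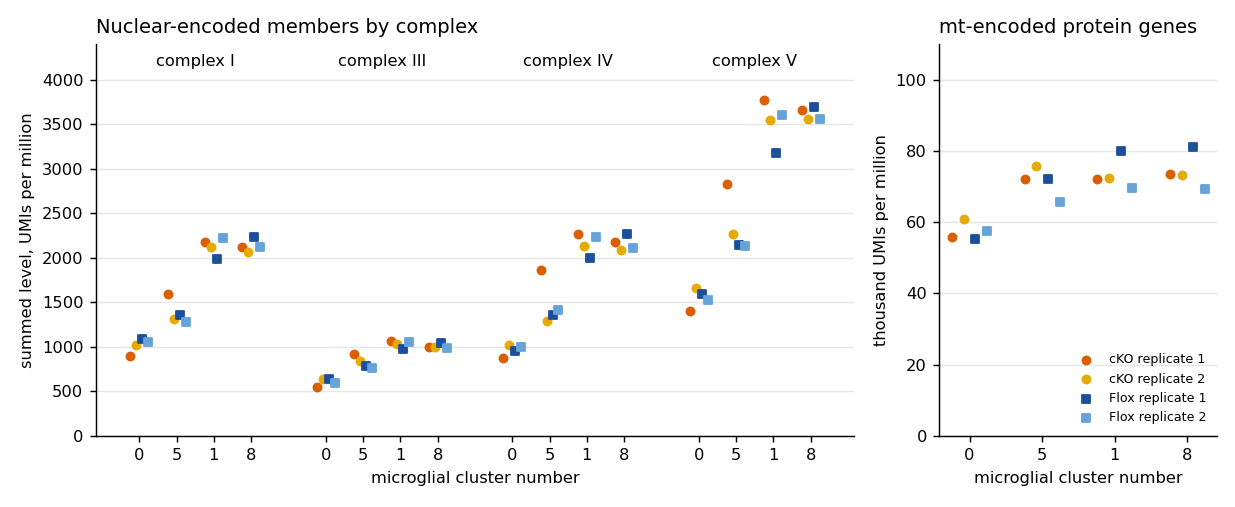
Summed CPM of complexes I, III, IV and V (left) and of the mitochondrially encoded protein genes (right) in the 4 microglial clusters; each point is 1 library. Each complex is lowest in cluster 0 and highest in clusters 1 and 8.

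Gene by gene, 57 of the 83 members with at least 400 UMIs were higher in cluster 1 than in cluster 0 with no overlap of the 4 libraries, and 0 were lower. Among all genes that met the same minimum, 20.6% were higher and 25.1% lower without overlap. The median ratio of cluster 1 over cluster 0 was 2.06 for the members, 1.21 for the mitochondrially encoded protein genes and 0.934 for all genes. By complex the median ratios were 2.47 for complex IV, 2.36 for complex V, 2.27 for complex I, 1.85 for complex III, 1.66 for complex II and 1.48 for the complex I assembly factors. Ndufc1 (3.75), Ndufa12 (3.63), Atp5k (3.61), Ndufa4 (3.39) and Ndufb6 (3.39) had the highest ratios. Ndufaf7 (0.914), Ndufs3 (0.950), Ndufa6 (0.997) and Atp5b (1.04), the catalytic beta subunit, had the lowest. The members therefore did not move as one block.

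Depth and other gene groups differed between the same clusters. The median UMIs per cell were 8436 to 10267 in cluster 1 and 3585 to 4307 in cluster 0. The summed medians of glycolysis genes were 2388 CPM in cluster 1 and 1250 CPM in cluster 0. In the same order of clusters 1 and 0, they were 1986 and 1258 CPM for mitochondrial ribosomal proteins, 1409 and 875 CPM for outer membrane and import genes, and 1218 and 933 CPM for pyruvate dehydrogenase and the citric acid cycle. The 12 microglial markers summed to 16987 CPM in cluster 1 and 22098 CPM in cluster 0, and cytosolic ribosomal proteins to 35000 CPM in cluster 1 and 26589 CPM in cluster 0. Hypoxia genes were at 347 CPM in cluster 1 and 401 CPM in cluster 0. The part of depth in the cluster difference was not tested.

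Monocyte-derived macrophages also consisted of clusters that the libraries filled unequally. Cluster 6 held 61.7 and 62.5% of them in cKO and 0.0254 and 4.89% in Flox; its members summed to 10553 and 10477 CPM in cKO and 10145 CPM in Flox replicate 2. Cluster 3 held 5.86 and 26.4% of them in cKO and 2.92 and 79.5% in Flox, with 11070 and 10612 CPM in cKO and 9614 and 11078 CPM in Flox. Cluster 16, with 31.8 and 8.55% in cKO and 3.02 and 5.48% in Flox, was lower, at 7726 and 8847 CPM in cKO and 9041 and 8652 CPM in Flox. Cluster 4, with the 80.5% of Flox replicate 1 given above, had 10755 and 11060 CPM in Flox. Cluster 23 held 9 and 20 cells in cKO and 534 and 52 cells in Flox and was the highest of the 5, at 13244 and 12009 CPM in Flox. It was a cycling cluster, with cycling markers at 2973 and 3566 CPM in Flox, against 73.2 and 69.5 CPM in cluster 4. Clusters 4 and 23 had too few cells in cKO to give a value. In clusters 3 and 16 the cKO and Flox values overlapped, and cluster 6 had too few cells in Flox replicate 1 to give a value.

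For the comparison of genotypes, Htr2b itself was looked at first. Over all kept cells it had 46.6 and 53.3 CPM in cKO and 53.2 and 84.3 CPM in Flox. In monocyte-derived macrophages it had 10.9 and 27.4 CPM in cKO, against 81.1 and 129 CPM in Flox, and in microglia 113 and 92.4 CPM in cKO, against 45.9 and 116 CPM in Flox. The macrophage groups did not overlap and the microglial groups did. Which part of the gene was deleted is not given in the sources used here, so a tag at its 3′ end need not report the deletion.

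No member passed the test between cKO and Flox in any of the 11 classes, with edgeR's quasi-likelihood test on sums per library and Benjamini-Hochberg adjustment over all genes of a class, nor with DESeq2. In microglia 90 members were tested and 1 had an unadjusted p under 0.05; the smallest adjusted p was 0.48. In monocyte-derived macrophages 90 were tested and 2 had an unadjusted p under 0.05; the smallest adjusted p was 0.409. Of all genes tested, 0% were called by edgeR in microglia, monocyte-derived macrophages, neutrophils, endothelial cells, fibroblasts and neuroblasts. The shares were 0.472% in astrocytes, 0.24% in border macrophages, 0.183% in oligodendrocytes, 0.0304% in cluster 9 and 0.0251% in choroid plexus. Of the 95 entries, Cox4i2, Cox7b2, Cox8b, Cox8c and Ndufa4l2 had too few UMIs for the test in both of these classes, and 61 to 90 entries were tested per class. A member count of 0 was therefore close to the background in every class. DESeq2 called 255 genes in microglia and 434 in monocyte-derived macrophages, none of them a member.

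The members' log2 fold changes (cKO over Flox) had medians below 0 in all 11 classes. The median was -0.12 in microglia, where 65 of 90 were below 0, and -0.22 in monocyte-derived macrophages, where 75 of 90 were below 0. It was -0.07 in neutrophils and in endothelial cells, -0.05 in oligodendrocytes and border macrophages, -0.19 in cluster 9, -0.21 in fibroblasts, -0.26 in neuroblasts, -0.34 in choroid plexus and -0.39 in astrocytes. Medians of all tested genes lay between -0.03 and 0.01. Within single clusters, added after seeing the data, the members' median was -0.01 in microglial cluster 1 and -0.03 in macrophage cluster 3. Leaving out single libraries took the median to between -0.23 and 0.04 in neutrophils and between -0.12 and 0.03 in endothelial cells, so its sign is not fixed there. The classes share their 4 libraries, so the repeated sign is not independent evidence. With plain CPM in place of TMM scaling the median of all genes was 0.13 in microglia, 0.12 in monocyte-derived macrophages and 0.11 in oligodendrocytes, and the members' medians were 0.03, -0.06 and 0.06 there, so the sign in microglia and oligodendrocytes depends on the scaling.

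**Figure D4:**
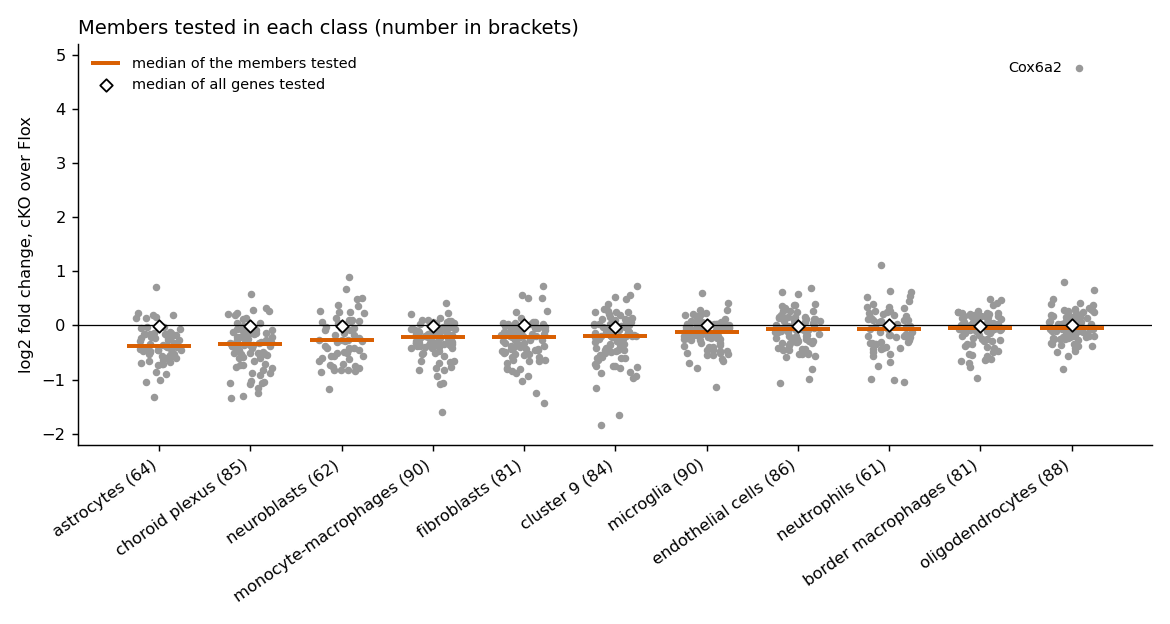
Log2 fold change (cKO over Flox, edgeR) of each tested member in 11 classes, ordered by the members' median; the orange line is that median and the white diamond the median of all genes tested. The members' median lies below the diamond in every class, from -0.39 in astrocytes to -0.05 in border macrophages and oligodendrocytes, and no point passed the test; the single high point is Cox6a2 in oligodendrocytes.

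Counted on plain CPM, 17 of 90 members (18.9%) were lower in both cKO libraries than in both Flox libraries in microglia, against 14.5% of all genes, and 14 (15.6%) were higher, against 34.7%. In monocyte-derived macrophages 29 of 90 (32.2%) were lower, against 17.8% of all genes, and 5 (5.56%) higher, against 30.0%. In choroid plexus 50 of 85 (58.8%) were lower, against 21.7%, and 2 (2.35%) higher, against 16.3%. In astrocytes 27 of 64 (42.2%) were lower, against 22.2%, and 2 (3.12%) higher, against 23.1%. Among these classes, the microglial share of lower members was thus the closest to the background and the choroid plexus share the furthest from it. The microglial share of higher members lay well below its background. In oligodendrocytes the share of lower members was below the background, with 3 of 88 (3.41%) against 20.8% of all genes. In neutrophils it was 8 of 61 (13.1%), against 15.1%. In border macrophages it was close to the background, at 23.5%, against 21.96% of all genes. It was further above the background in cluster 9 (29.8%, against 18.95%) and endothelial cells (27.9%, against 16.98%). The same held in fibroblasts (33.3%, against 16.5%) and neuroblasts (29.03%, against 16.6%). The median UMIs per choroid plexus cell were 1510 and 1862 in cKO and 4112 and 1225 in Flox, and microglial markers in astrocytes summed to 4286 and 4328 CPM in cKO and 1946 and 1871 CPM in Flox. The part of these in the counts was not tested.

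The members with the smallest p in astrocytes and choroid plexus are given as examples, picked after their values were seen. Uqcrb had 110 and 139 CPM in cKO, against 233 and 224 CPM in Flox astrocytes (-0.86, SE 0.24; edgeR adjusted p = 0.152). Ndufaf4 had 72.0 and 60.4 CPM in cKO, against 127 and 117 CPM in Flox astrocytes (-0.90, SE 0.28; edgeR adjusted p = 0.189), and Cox7a2 had 78.8 and 70.6 CPM in cKO, against 183 and 124 CPM in Flox (-1.04, SE 0.29; edgeR adjusted p = 0.14). For Uqcrb and Ndufaf4 both Flox libraries were of similar level, and for Cox7a2 the first Flox library was the higher. In choroid plexus the 2 smallest p belonged to Cycs (-1.02, SE 0.26) and Atp5g1 (-1.06, SE 0.28), whose values are given above, and each had an edgeR adjusted p = 0.555. The Flox libraries of both genes lay well above the cKO libraries. Astrocytes and choroid plexus were small classes, with 202 and 375 astrocytes in cKO and 117 and 129 in Flox, and 247 and 380 choroid plexus cells in cKO and 92 and 163 in Flox. In oligodendrocytes, cluster 11 held 737 and 1316 cells in cKO and 0 and 5 cells in Flox, and its members summed to 7341 and 7373 CPM in cKO; the class as a whole had 8903 and 8172 CPM in cKO and 8030 and 8136 CPM in Flox.

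Among complexes in microglia, the median log2 fold change was -0.24 for complex IV (15 of 20 tested), -0.12 for complex I, -0.08 for complex V, -0.07 for complex III, -0.06 for Cycs and 0.03 for complex II. In monocyte-derived macrophages it was -0.37 for Cycs, -0.36 for complex IV, -0.20 for complex II, -0.19 for complex V, -0.18 for complex I and -0.15 for complex III. The 13 mitochondrially encoded protein genes had medians of -0.25 in microglia (12 below 0) and -0.44 in monocyte-derived macrophages (13 below 0), and none of them passed.

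The most negative fold change among members of at least 20 CPM belonged to Atp5e, the epsilon subunit of the ATP synthase head, in each of the 4 main classes. In microglia it had 41.5 and 34.8 CPM in cKO, against 102 and 44.1 CPM in Flox (log2 fold change -1.14, SE 0.47; edgeR adjusted p = 0.484). In monocyte-derived macrophages it had 79.3 and 61.5 CPM in cKO, against 168 and 86.5 CPM in Flox (-1.08, SE 0.45; edgeR adjusted p = 0.442). The groups did not overlap in either class, and Flox replicate 1 was far above the other 3 libraries. In neutrophils the values were 35 and 45.6 CPM in cKO and 91.1 and 67.9 CPM in Flox, and in endothelial cells 39.7 and 32.6 CPM in cKO and 93.2 and 59.4 CPM in Flox. Ndufb11, an accessory subunit of complex I, was next in microglia, with 58.0 and 45.9 CPM in cKO and 103 and 52.3 CPM in Flox (-0.78, SE 0.41; edgeR adjusted p = 0.525). In monocyte-derived macrophages it had 64.6 and 52.5 CPM in cKO and 143 and 64.0 CPM in Flox (-1.06, SE 0.51; edgeR adjusted p = 0.467). Its groups overlapped in both classes. In neutrophils Atp5md, a small subunit of the membrane part, had 75.7 and 87.7 CPM in cKO, against 176 and 139 CPM in Flox (-1.0, SE 0.36; edgeR adjusted p = 0.608).

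Among members of at least 20 CPM, the most positive fold changes were smaller than the falls in microglia and macrophages. Across all members tested, the highest value was 0.61 in microglia and 0.41 in monocyte-derived macrophages. Sdhc had 60.5 and 60.9 CPM in cKO and 34.6 and 56.4 CPM in Flox microglia (0.29, SE 0.20; edgeR adjusted p = 0.59). Atp5b had 49.7 and 48.6 CPM in cKO and 28.7 and 44.7 CPM in Flox microglia (0.29, SE 0.19; edgeR adjusted p = 0.569). Both were lowest in Flox replicate 1. In monocyte-derived macrophages Ndufv3 had 27.5 and 33.7 CPM in cKO and 19.3 and 32.8 CPM in Flox, and Ndufa8 had 68.2 and 68.9 CPM in cKO and 50.1 and 65.4 CPM in Flox, with log2 fold changes of 0.10 and 0.09. Sdhb, the iron-sulphur subunit of complex II, had 35.7 and 28.1 CPM in cKO and 9.43 and 19.2 CPM in Flox neutrophils (1.12, SE 0.53; edgeR adjusted p = 0.736), and Ndufa7 had 23.1 and 42.1 CPM in cKO and 9.43 and 28 CPM in Flox neutrophils. In endothelial cells Ndufc2 had 319 and 342 CPM in cKO and 246 and 254 CPM in Flox (0.37, SE 0.19, edgeR adjusted p = 0.829). Sdhc had 47.5 and 44.7 CPM in cKO and 10.8 and 42.9 CPM in Flox endothelial cells. For Flox replicate 1, 1 UMI equals 3.14 CPM in neutrophils and 1.79 CPM in endothelial cells. The Flox replicate 1 values of Sdhb and Ndufa7 in neutrophils and of Sdhc in endothelial cells thus rest on few UMIs.

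The same library stood apart in all classes. Of 58 members tested in all 11 classes, Atp5e, Ndufb11, Ndufv2, Sdhd and Cox7a2 were highest in Flox replicate 1 in every class, and Atp5h was lowest there in 10 of the 11. In at least 8 classes, 14 members were highest and 14 lowest in that library, and 8 were highest in Flox replicate 2. In as many classes 1 member was lowest in cKO replicate 1 and 3 in cKO replicate 2, while 0 were highest in either cKO library and 0 lowest in Flox replicate 2. The same counts were not made for all genes, so they do not set the members apart from other genes. Over classes the median ratio of Flox replicate 1 to the median of the other 3 libraries was 2.45 for Atp5e (1.70 to 3.24) and 1.98 for Ndufb11 (1.30 to 2.64). It was 0.57 for Cox4i1 and 0.52 for Atp5h. Members thus deviated in both directions within the same complex. As an example, the complex II anchor Sdhd had 78.5 and 74.9 CPM in cKO and 123 and 75.1 CPM in Flox microglia. Cox4i1, the regulatory subunit of complex IV, had 56.4 and 58.1 CPM in cKO and 33.4 and 68.0 CPM in Flox microglia.

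**Figure D5:**
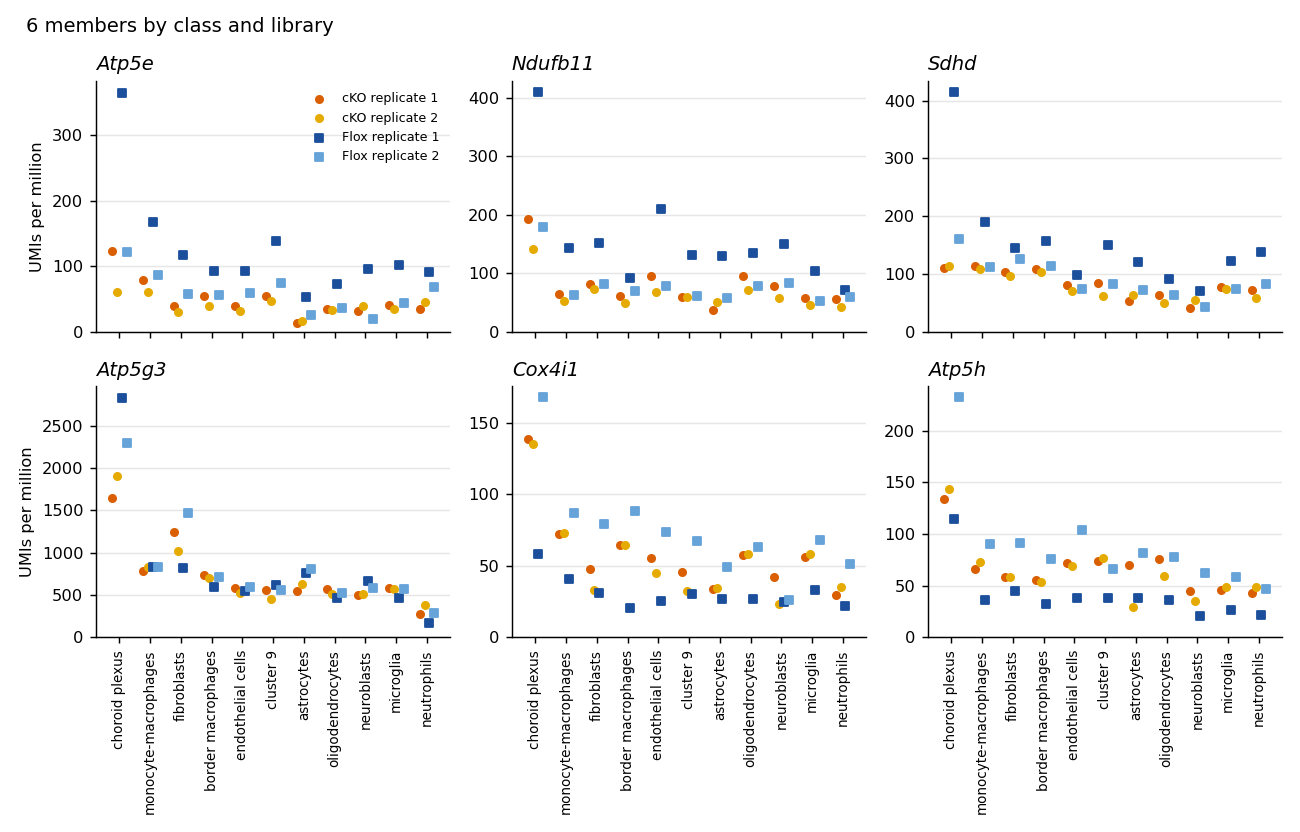
CPM of Atp5e, Ndufb11, Sdhd, Atp5g3, Cox4i1 and Atp5h by class and library. Flox replicate 1 is the highest library for Atp5e, Ndufb11 and Sdhd in every class and the lowest for Atp5h in 10 of the 11 classes.

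Leaving out Flox replicate 2, which sets both cKO libraries against Flox replicate 1 alone and assumes that this library varies like the cKO pair, brought members past the edgeR threshold. In microglia 29 of 90 (32.2%) were then lower and 8 (8.89%) higher, against 17.3 and 14.3% of all genes. In monocyte-derived macrophages 32 of 90 (35.6%) were lower and 3 (3.33%) higher, against 18.5 and 15.6% of all genes. In choroid plexus 13 of 85 were lower, against 1.64% of all genes, in cluster 9 15 of 66, against 7.77%, and in neuroblasts 11 of 68, against 5.65%. Other classes had few calls: 2 of 68 lower in astrocytes (Ndufb11 and Cox7a2), against 0.982% of all genes, 2 of 72 lower in fibroblasts (Atp5e and Ndufb11), against 6.97%, and 2 of 80 lower (Atp5e and Cox5a) and 2 higher (Cox4i1 and Cox7c) in border macrophages, against 4.82 and 5.11%. In oligodendrocytes 4 of 89 were lower (Atp5e, Ndufb11, Sdhd and Ndufv2) and 1 higher (Uqcr10), against 4.97 and 6.07%, and in neutrophils and endothelial cells 0 members and 0% of all genes passed. The lower lists of microglia and macrophages had most of their members in common. Both lists set the same cKO libraries against the same control library, and the overlap was not counted for all genes. Atp5e (-1.71 in microglia, edgeR adjusted p = 0.000488) and Ndufb11 (-1.29) led the fall, and Ndufb9 (0.90), Atp5h (0.55), Sdhc (0.52) and Cox4i1 (0.49) were among those that rose. Without any one of the other 3 libraries no member passed in any class. The calls thus appeared where Flox replicate 1 was the lone control and not where Flox replicate 2 was.

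Whether the genotype difference itself differed between monocyte-derived macrophages and microglia was tested as an interaction with the library as a block. No member passed, and 0.00675% of all genes did. Without Flox replicate 2, 8 of 90 members passed, all with a lower fold change in macrophages, against 7.23% of all genes in that direction. They were Ndufa12 (-0.62), Atp5b (-0.60), Sdhc (-0.56), Ndufa4 (-0.56), Atp5a1 (-0.53), Cycs (-0.50), Cox5a (-0.46) and Atp5g3 (-0.42). In that direction the share of members was near the background. The opposite direction was not set against all genes.

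Other genes of the pathway were read from lists and none of their members passed in microglia or monocyte-derived macrophages. In microglia the median log2 fold change was -0.06 for biogenesis and mtDNA transcription (19 of 19 tested), -0.16 for assembly factors outside the member rule (36 of 36), -0.02 for pyruvate dehydrogenase and the citric acid cycle (16 of 16) and -0.17 for outer membrane and import (13 of 13). It was -0.33 for glycolysis (19 of 20), -0.57 for hypoxia response (10 of 10), -0.20 for cytosolic ribosomal proteins (84 of 87) and -0.09 for mitochondrial ribosomal proteins (77 of 78). In monocyte-derived macrophages the same medians were -0.16, -0.15, -0.10 and -0.26, then -0.07 (19 of 20), 0.19 (10 of 10), -0.02 (85 of 87) and -0.20 (77 of 78). Of these lists, the medians of glycolysis, hypoxia and cytosolic ribosomal protein genes differed most between the 2 classes, and more than that of the members. The other lists differed about as much as the members or less, and none of these differences was tested.

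Cox20, a chaperone for complex IV assembly, had the smallest p of its list in both classes. It had 61.6 and 64.6 CPM in cKO, against 95.6 and 78.7 CPM in Flox microglia (-0.64, SE 0.20; edgeR adjusted p = 0.48). In macrophages it had 58.7 and 59.3 CPM in cKO, against 91.2 and 90.8 CPM in Flox (-0.80, SE 0.18; edgeR adjusted p = 0.355). Both groups were separate without passing the test. Slc2a3, a glucose transporter, had 38.1 and 40.8 CPM in cKO, against 11.9 and 16.4 CPM in Flox microglia (1.34, SE 0.17; edgeR adjusted p = 0.285). Slc2a1, another glucose transporter, had 19.3 and 15.3 CPM in cKO, against 7.24 and 9.69 CPM in Flox macrophages (0.88, SE 0.23; edgeR adjusted p = 0.371). The glycolytic enzyme Aldoa went the other way, with 95.8 and 89.2 CPM in cKO and 189 and 129 CPM in Flox microglia. P4ha1, a hypoxia-induced prolyl hydroxylase of collagen, had 119 and 119 CPM in cKO and 260 and 163 CPM in Flox microglia, and 69.0 and 63.1 CPM in cKO and 135 and 100 CPM in Flox macrophages. Vegfa, the vascular growth factor, had 105.5 and 107.1 CPM in cKO and 17.5 and 64.2 CPM in Flox macrophages. Vdac1, the outer membrane channel, had 112 and 119 CPM in cKO and 154 and 154 CPM in Flox macrophages (-0.59, SE 0.18; edgeR adjusted p = 0.393).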

How the data were processed

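The 4 libraries (BD Rhapsody) were deposited by the authors as filtered gene-by-cell matrices of raw UMI counts. Per the submitters' processing notes, fastp 0.24.0 and STARsolo were used with mm10; the sources used here give no STARsolo version, annotation or strand setting. Every deposited matrix was mapped to its sample and 0 columns were left unmapped. Barcodes with at least 500 UMIs, 250 genes and under 20% mitochondrially encoded UMIs were kept, and predicted doublets were removed (1.50 to 2.50% per library). Clustering used scanpy 1.11.5 (2000 variable genes without members and mitochondrially encoded genes, 30 components, Leiden resolution 1), and clusters were named from markers.

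The unit of testing was the library, so counts of all cells of a class in a library were added up. Genotypes were compared with edgeR 4.0.16 (TMM, filterByExpr, quasi-likelihood test, Benjamini-Hochberg over all genes, threshold 0.05) in classes with at least 50 cells in every library; DESeq2 1.42.0 was an alternative. The SE is the log2 fold change divided by the root of F. Differences between classes were not tested. Named were the 3 highest members of each complex, the 2 extreme fold changes in each direction per main class at 20 CPM or more, restricted forms with their common forms, and 2 genes with the smallest p of each other list. Values of some genes are not reported here. The members and lists were chosen with earlier results of these data known. The labels do not say that replicate numbers pair libraries, so the comparison within a class had no block and the replicate block was an alternative; the interaction test had the library as a block. Further alternatives were other scalings, filters, cell limits, clusterings and libraries left out. Sums over few cells rest on few UMIs, and counting error then adds to the spread. The number of UMIs behind a value is given for some of the low values.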

Additional observations from a re-analysis of the deposited data

How the results depend on the processing

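The count of members past the threshold was 0 under the alternatives run, with these exceptions. With no filter on low counts, 1 member passed in microglia, Atp5e, whose edgeR adjusted p was 0.0459 there and up to 0.555 over the alternatives that keep all libraries. Leaving out each library in turn gave 0 to 37 members in microglia, 0 to 35 in monocyte-derived macrophages, 0 to 52 over the 7 other classes together and 0 to 8 for the interaction; the upper ends are all without Flox replicate 2, and without it Atp5e had an adjusted p of 0.000488 in microglia. The cause was not tested. The replicate block left 0 members in microglia, monocyte-derived macrophages, neutrophils and endothelial cells, and so did crossed numbers, a choice made after seeing the data. Same-numbered libraries had correlations of deviations of -0.247 in microglia, -0.232 in monocyte-derived macrophages, 0.323 in neutrophils and -0.279 in endothelial cells, and the labels do not pair them. The members' median log2 fold change ranged from -0.14 to -0.01 in microglia and from -0.25 to -0.03 in monocyte-derived macrophages over the edgeR and DESeq2 alternatives that keep all libraries, with the ends nearest 0 in cluster 1 alone and cluster 3 alone, both added after seeing the data. Plain CPM, which no test used, gave members' medians of 0.03 in microglia and -0.06 in monocyte-derived macrophages, so the microglial sign turned. No member was called in the main comparison, so there was no call whose sign could be checked. Several restricted forms rest on fewer than 10 UMIs per library.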
